A study of Mus musculus with 18 samples.

Results

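Fcer1a, Ms4a2 and Cd200r3 encode surface receptor proteins of mast cells and basophils, and their signals were followed over 6 groups of sorted mouse bone marrow cells. The members were the probe sets annotated with 1 of these 3 symbols. Each gene had a single probe set, so the 3 genes were 3 of 10335 probe sets and 3 of 9636 genes with a single symbol in the table. All groups came from Balb/c mice with a myeloproliferative neoplasm (MPN). It was induced by transplanting donor cells to which a retrovirus had brought JAK2V617F and GFP. JAK2V617F is a constantly active form of the kinase JAK2. In each experiment, marrow of 3 to 4 mice was kept in culture for 16 h with IL-3 (50 ng/mL) and SCF (100 ng/mL), either untreated or with a blocking antibody (BA) against TNFR1 or TNFR2 at 10 μg/mL. The Lin-Kit+ cells of each culture were then sorted into a GFP+ fraction, called JAK2V617F+, and a GFP- fraction, called JAK2V617F-. There were 3 experiments and therefore 3 arrays in each of the 6 groups. The replicate number of an array was taken to name its experiment, which the sample labels do not state. The GFP- cells grew in the same diseased marrow and the same culture as the GFP+ cells and were not cells of healthy mice. No age of the mice is given in the sources used here.

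The high-affinity IgE receptor, FcεRI, holds IgE on the surface of mast cells and basophils. When antigen cross-links the bound IgE, the cells release histamine, proteases and lipid mediators. The α chain (Fcer1a) binds IgE, the β chain (Ms4a2) spans the membrane several times and amplifies the signal, and the γ chain (Fcer1g) carries the signal into the cell and is shared with other Fc receptors. Cd200r3 belongs to the CD200 receptor family and is an activating receptor known from mouse mast cells and basophils. Both cell types arise from marrow progenitors, and IL-3 and SCF are the usual factors for growing mast cells from marrow.

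The gene of the α chain lies on chromosome 1 (GRCm38.p6, 173221269 to 173227232, minus strand), that of the β chain on chromosome 19 (11615517 to 11623790, minus strand) and Cd200r3 on chromosome 16 (44943596 to 45058365, plus strand). The stretches just upstream of the 3 annotated genes are shown because they hold the motif of GATA factors, regulators of mast cell genes. They were taken from RefSeq windows of 250 bases before and 50 bases after a start site and end where the annotated gene begins. Each is written 5′ to 3′ on the strand of the gene, and capitals mark AGATAA or TGATAA or their reverse complements.
Fcer1a, chr1:173227233-173227479, minus strand: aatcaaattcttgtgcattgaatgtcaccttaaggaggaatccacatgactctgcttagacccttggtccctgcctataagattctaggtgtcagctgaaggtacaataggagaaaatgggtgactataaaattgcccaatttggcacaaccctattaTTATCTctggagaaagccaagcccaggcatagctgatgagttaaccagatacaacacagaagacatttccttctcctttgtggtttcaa
Ms4a2, chr19:11623791-11623969, minus strand: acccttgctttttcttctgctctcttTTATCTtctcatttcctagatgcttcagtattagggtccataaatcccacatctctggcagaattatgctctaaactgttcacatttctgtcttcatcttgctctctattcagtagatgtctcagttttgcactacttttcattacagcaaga
Cd200r3, chr16:44943428-44943595, plus strand: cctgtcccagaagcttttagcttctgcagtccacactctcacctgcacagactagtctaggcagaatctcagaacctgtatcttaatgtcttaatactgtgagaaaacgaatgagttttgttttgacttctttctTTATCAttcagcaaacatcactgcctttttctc
The whole window held 1 such match for Fcer1a, at position -92 from the start site of the window. The Ms4a2 window held 3, at -224, -37 and -11, and the Cd200r3 window 2, at -115 and -39, and those nearest to the start site lie beyond the printed stretches. Of 32851 promoter windows of this length, 18.6% held at least 1 match on either strand, 3.26% at least 2 and 0.502% at least 3. The E-box CANNTG, which reads the same on both strands, occurred 3 times in the Fcer1a window, 2 times in that of Cd200r3 and 0 times in that of Ms4a2, and 72.3% of windows held it. The letters alone do not show that a factor binds there.

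The signals are log2 values made by the authors, from 2.22 to 15.49, and the 2.22 is a lowest value shared by 3.01% to 5.87% of the probe sets of each array used. The table has no detection calls, so a gene at the lowest value has only an upper bound there. The study excluded an array of untreated JAK2V617F+ cells for its quality, and it was left out of all tests here. The median of this array, replicate 3, was 6.05, and the medians of the 17 arrays used ranged from 7.41 to 7.75. Untreated JAK2V617F+ cells therefore had 2 arrays and every other group 3. Kit, the marker of the sort, reached a mean log2 signal of 7.32 ± 1.94 (SD, n = 8) in JAK2V617F+ and 7.02 ± 1.87 (SD, n = 9) in JAK2V617F- arrays. The neutrophil genes S100a8 and S100a9 had mean log2 signals of 14.77 to 15.27 in both genotypes, close to the highest value of the table, in cells sorted as Lin-. Signals of different probe sets are not levels per length, so the genes were not ranked against each other.

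Over the 3 treatments, Cd200r3 and Fcer1a rose in JAK2V617F+ relative to JAK2V617F- cells, and Ms4a2 had a positive difference that did not pass the test. The difference was 5.16 on the log2 scale for Cd200r3 (standard error 0.91, adjusted p = 0.0109 from limma), 2.91 for Fcer1a (standard error 0.50, adjusted p = 0.00897) and 1.60 for Ms4a2 (standard error 0.50, adjusted p = 0.253). Cd200r3 lay within 0.2 of the lowest value on 5 of 9 JAK2V617F- arrays, where it has only an upper bound, so the difference of 5.16 may be understated. Thus 2 of the 3 genes passed an adjusted p of 0.05, where 0.358% of all probe sets did (37 of 10335, 31 of them higher in JAK2V617F+ cells). Among 9636 genes, the difference of Cd200r3 was rank 12 from the highest, that of Fcer1a rank 75 and that of Ms4a2 rank 470. An exact two-sided permutation test of each value, with genotypes exchanged among the arrays of a treatment, gave p = 0.0005 for Fcer1a, the smallest p that its 4000 arrangements allow, 0.001 for Cd200r3 and 0.003 for Ms4a2. That test also exchanges arrays between experiments. A test added after seeing the data exchanged the genotypes only within the 8 pairs of the same experiment and treatment. Its exact two-sided permutation p was 0.00781 for Fcer1a and Cd200r3, the smallest that 256 arrangements allow, and 0.0391 for Ms4a2. It treats the 8 pairs as independent, although they came from 3 experiments, so its p-values may be too small. Neither permutation test was adjusted over the probe sets, and the 3 genes were chosen with earlier results of these data known. Their p-values are thus no independent support for the difference. In these sorted populations, more cells of a type and more RNA per cell cannot be told apart.

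Both calls rested on 3 experiments. Fcer1a did not pass without replicate 1 (2.20, adjusted p = 0.267 from limma) or replicate 2 (3.41, adjusted p = 0.156). Cd200r3 did not pass without replicate 1 (4.63, adjusted p = 0.266), without replicate 2 (4.85, adjusted p = 0.306) or without the single array of untreated JAK2V617F+ replicate 2 (4.73, adjusted p = 0.0627). Leaving out replicate 1 or 2 leaves 1 untreated JAK2V617F+ array, which is then assumed to vary like the other groups, and the probe sets called over the whole table went to 7 and 6.

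Fcer1a, the IgE-binding chain, had log2 signals of 12.35 and 10.85 on the untreated JAK2V617F+ arrays, of 12.31, 12.07 and 13.10 with TNFR1 BA and of 11.75, 11.26 and 13.58 with TNFR2 BA (replicates 1, 2 and 3). In JAK2V617F- cells the values were 9.01, 9.07 and 10.57 untreated, 7.88, 10.58 and 10.41 with TNFR1 BA and 7.24, 8.06 and 9.84 with TNFR2 BA. Each JAK2V617F+ array lay above each JAK2V617F- array, although the gap between the lowest of one and the highest of the other was small (10.85 against 10.58). Over all 17 arrays, 0.228% of genes showed JAK2V617F+ arrays above JAK2V617F- arrays without overlap (22 of 9636). The mean log2 signal was 12.16 ± 0.90 (SD, n = 8) in JAK2V617F+ and 9.19 ± 1.25 (SD, n = 9) in JAK2V617F- cells. The order of the group means ran from TNFR1 BA JAK2V617F+ (12.49) over TNFR2 BA (12.20) and untreated JAK2V617F+ (11.60) to TNFR1 BA JAK2V617F- (9.62), untreated JAK2V617F- (9.55) and TNFR2 BA JAK2V617F- (8.38). Neighbours in this order overlapped, except untreated JAK2V617F+ and TNFR1 BA JAK2V617F-, where the genotype changes.

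Ms4a2, the β chain, had log2 signals of 9.52 and 9.26 on the untreated JAK2V617F+ arrays, of 9.50, 8.53 and 10.66 with TNFR1 BA and of 8.47, 8.67 and 9.99 with TNFR2 BA. In JAK2V617F- cells it had 7.70, 8.48 and 7.38 untreated, 6.42, 7.48 and 6.78 with TNFR1 BA and 9.11, 8.84 and 7.34 with TNFR2 BA. The genotypes overlapped, and 5 of 8 JAK2V617F+ arrays lay above all JAK2V617F- arrays. The overlap came from the TNFR2 BA cultures, where replicates 1 and 2 of the JAK2V617F- cells were higher than those of the JAK2V617F+ cells. The mean log2 signal was 9.32 ± 0.76 (SD, n = 8) in JAK2V617F+ and 7.73 ± 0.91 (SD, n = 9) in JAK2V617F- cells. Group means ran from 9.56 in TNFR1 BA JAK2V617F+ to 6.89 in TNFR1 BA JAK2V617F- cells, and each group overlapped with the next.

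Cd200r3 had log2 signals of 7.09 and 9.66 on the untreated JAK2V617F+ arrays, of 9.72, 4.68 and 8.36 with TNFR1 BA and of 9.92, 10.01 and 10.01 with TNFR2 BA. In JAK2V617F- cells it had 2.28, 2.32 and 4.08 untreated, 2.22, 2.22 and 4.71 with TNFR1 BA and 2.32, 3.81 and 7.44 with TNFR2 BA. In JAK2V617F- cells it was thus at or close to the lowest value on the arrays of replicates 1 and 2, except for 3.81 with TNFR2 BA, and highest in each treatment on the array of replicate 3. Only the arrays TNFR1 BA JAK2V617F- replicates 1 and 2 held the exact lowest value. The genotypes overlapped through 1 low JAK2V617F+ array (4.68) and 1 high JAK2V617F- array (7.44), and 6 of 8 JAK2V617F+ arrays lay above all JAK2V617F- arrays. The mean log2 signal was 8.68 ± 1.92 (SD, n = 8) in JAK2V617F+ and 3.49 ± 1.77 (SD, n = 9) in JAK2V617F- cells. Among the group means, TNFR2 BA JAK2V617F+ (9.98) was above untreated JAK2V617F+ (8.37) without overlap, over 3 and 2 arrays. This difference of 1.61 did not pass (standard error 1.69, adjusted p = 0.991 from limma). The share of all genes with such a gap between these groups was not counted. All later neighbours in the order overlapped, from TNFR1 BA JAK2V617F+ (7.59) to untreated JAK2V617F- (2.90).

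**Figure D1:**
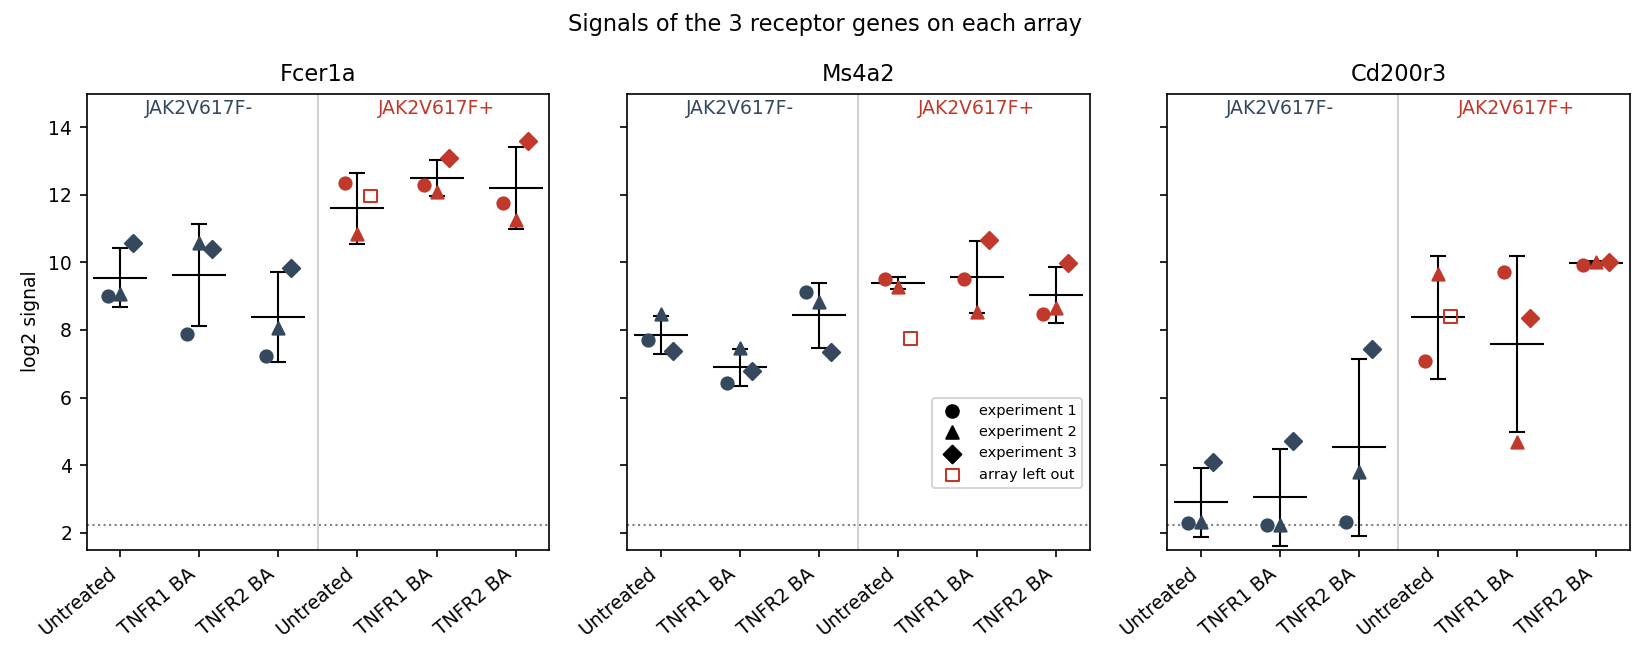
Log2 signal (vertical axis) of Fcer1a, Ms4a2 and Cd200r3 on each array, by treatment and genotype. Filled symbols are arrays, with the shape giving the experiment as taken from the replicate number. Black bars give the mean and SD without the array left out. The open square is that array and the dotted line is the lowest value of the table. All Fcer1a values of JAK2V617F+ arrays lie above those of JAK2V617F- arrays, and Ms4a2 overlaps in TNFR2 BA cultures.

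The genotypes were also compared within pairs of the same treatment and replicate number, taken to be the fractions sorted from 1 culture. Fcer1a was higher in the JAK2V617F+ fraction in 8 of 8 such pairs, by 1.49 to 4.51 on the log2 scale. Cd200r3 was higher in 8 of 8 pairs, by 2.46 to 7.60. Ms4a2 was higher in 6 of 8 pairs, with differences from -0.64 to 3.88. Both Ms4a2 exceptions were TNFR2 BA cultures, in experiments 1 and 2. The sizes differed between experiments. The mean pair difference of Fcer1a was 4.09, 2.16 and 3.22 in experiments 1, 2 and 3, that of Ms4a2 1.42, 0.55 and 3.26 and that of Cd200r3 6.64, 5.33 and 3.11. Experiment 3 thus had the largest Ms4a2 difference, over 2 pairs against 3 in the others. The Cd200r3 sizes were not ranked, since most JAK2V617F- values of experiments 1 and 2 were at or near the lowest value.

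**Figure D2:**
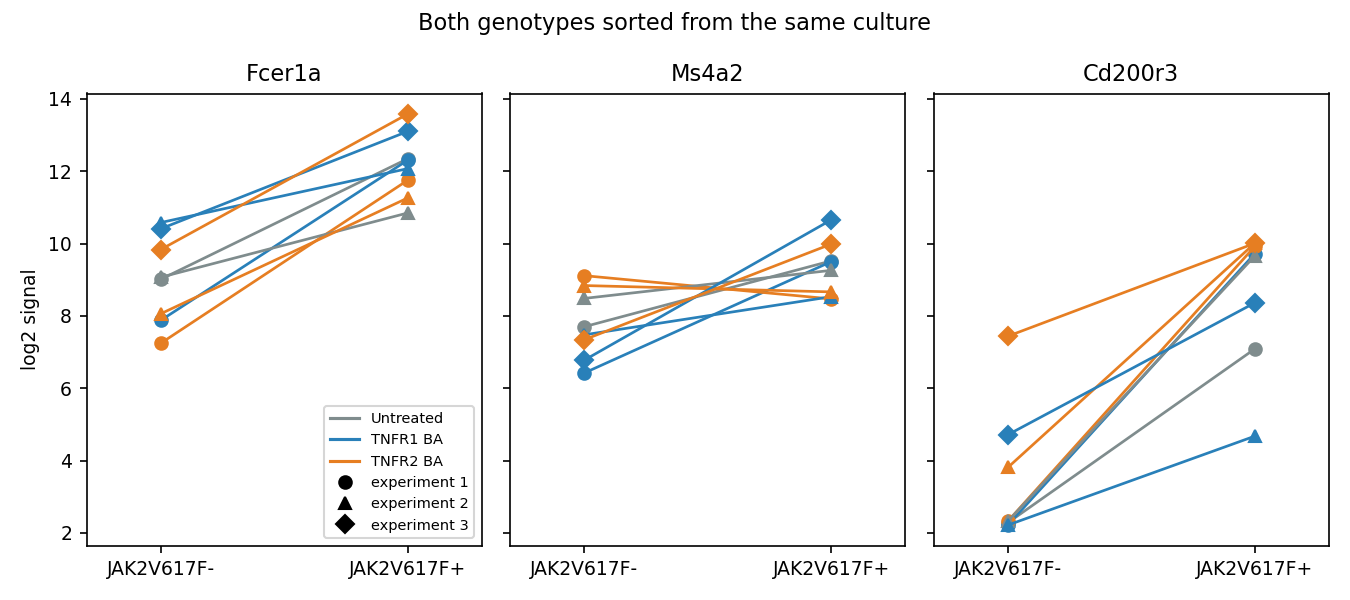
Log2 signal (vertical axis) of the 3 genes in JAK2V617F- and JAK2V617F+ cells. A line joins the fractions of the same treatment and replicate number, taken to be sorted from 1 culture. Colours give the treatment and symbols the experiment. All 8 lines rise for Fcer1a and Cd200r3, and 6 of 8 rise for Ms4a2.

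Within single treatments, none of the 3 genes passed the adjusted threshold, with smaller groups than over the treatments. In untreated cells the difference between the genotypes was 2.04 for Fcer1a (adjusted p = 0.650 from limma), 1.54 for Ms4a2 (adjusted p = 0.735) and 5.48 for Cd200r3 (adjusted p = 0.463), where 0.0774% of probe sets passed. With TNFR1 BA it was 2.87, 2.67 and 4.54 for the same genes (adjusted p = 0.485, 0.556 and 0.570 from limma), where 0.0871% passed and the median of all genes was 0.11. With TNFR2 BA it was 3.82, 0.61 and 5.46 (adjusted p = 0.145, 0.968 and 0.438 from limma), where 0.0387% passed. With the replicate number as a block, which pairs the fractions of an experiment, the Fcer1a difference in TNFR2 BA cultures was again 3.82 and passed (adjusted p = 0.0326 from limma). The 95% confidence intervals lay above 0 for Fcer1a and Cd200r3 in each treatment and for Ms4a2 with TNFR1 BA (0.93 to 4.41), and included 0 for Ms4a2 in untreated cells (-0.41 to 3.49) and with TNFR2 BA (-1.14 to 2.35). Without overlap, JAK2V617F+ arrays were above JAK2V617F- arrays for 3 of 3 genes in untreated cells, where 10.2% of all genes showed this, for Fcer1a and Ms4a2 with TNFR1 BA, where 6.56% did, and for Fcer1a and Cd200r3 with TNFR2 BA, where 5.22% did.

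The effect of the BAs on the 3 genes was compared within each genotype. None of the 3 passed in any of these comparisons. In JAK2V617F+ cells, TNFR1 BA minus untreated was 0.90 for Fcer1a (95% confidence interval -1.06 to 2.86), 0.17 for Ms4a2 (-1.78 to 2.12) and -0.79 for Cd200r3 (-4.34 to 2.77), where 0.00968% of probe sets passed. TNFR2 BA minus untreated was 0.60 for Fcer1a (-1.36 to 2.56), -0.35 for Ms4a2 (-2.30 to 1.60) and 1.61 for Cd200r3 (-1.95 to 5.17), where 0.029% passed. These comparisons share the untreated arrays. Cd200r3 had its most uniform values in TNFR2 BA JAK2V617F+ cells, and TNFR2 BA exceeded TNFR1 BA there by 2.39 (95% confidence interval -0.79 to 5.58, adjusted p = 1 from limma). The signal of the TNFR1 BA JAK2V617F+ array of replicate 2 (4.68) was far below the others of its group (9.72 and 8.36).

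In JAK2V617F- cells, TNFR1 BA minus untreated was 0.071 for Fcer1a, -0.96 for Ms4a2 and 0.15 for Cd200r3, and TNFR2 BA minus untreated was -1.17, 0.58 and 1.63 for the same genes. All 6 confidence intervals included 0, and the widest, for Cd200r3, ran from -3.03 to 3.34 with TNFR1 BA. TNFR2 BA minus TNFR1 BA in these cells was 1.54 for Ms4a2 (95% confidence interval -0.20 to 3.28), -1.24 for Fcer1a (-3.00 to 0.51) and 1.47 for Cd200r3 (-1.71 to 4.66). In the direct comparison of the BAs in JAK2V617F+ cells and in all 3 comparisons of JAK2V617F- cells, 0% of all probe sets passed in limma. For 452 probe sets (4.37%) in JAK2V617F+ cells and 255 to 385 (2.47% to 3.73%) in JAK2V617F- cells, the unadjusted limma p was under 0.05. A share of about 0.05 would fall there without any difference. The test of whether a BA acted differently in the genotypes gave, for TNFR1 BA, 0.83 for Fcer1a (-1.81 to 3.46), 1.13 for Ms4a2 (-1.48 to 3.75) and -0.94 for Cd200r3 (-5.71 to 3.83). For TNFR2 BA it gave 1.77 (-0.86 to 4.41), -0.93 (-3.54 to 1.69) and -0.021 (-4.80 to 4.75). In both tests 0% of probe sets passed in limma, and 540 and 396 (5.22% and 3.83%) had an unadjusted p under 0.05. With intervals this wide, BA effects of several log2 units on Cd200r3 were not detectable with these arrays.

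**Figure D3:**
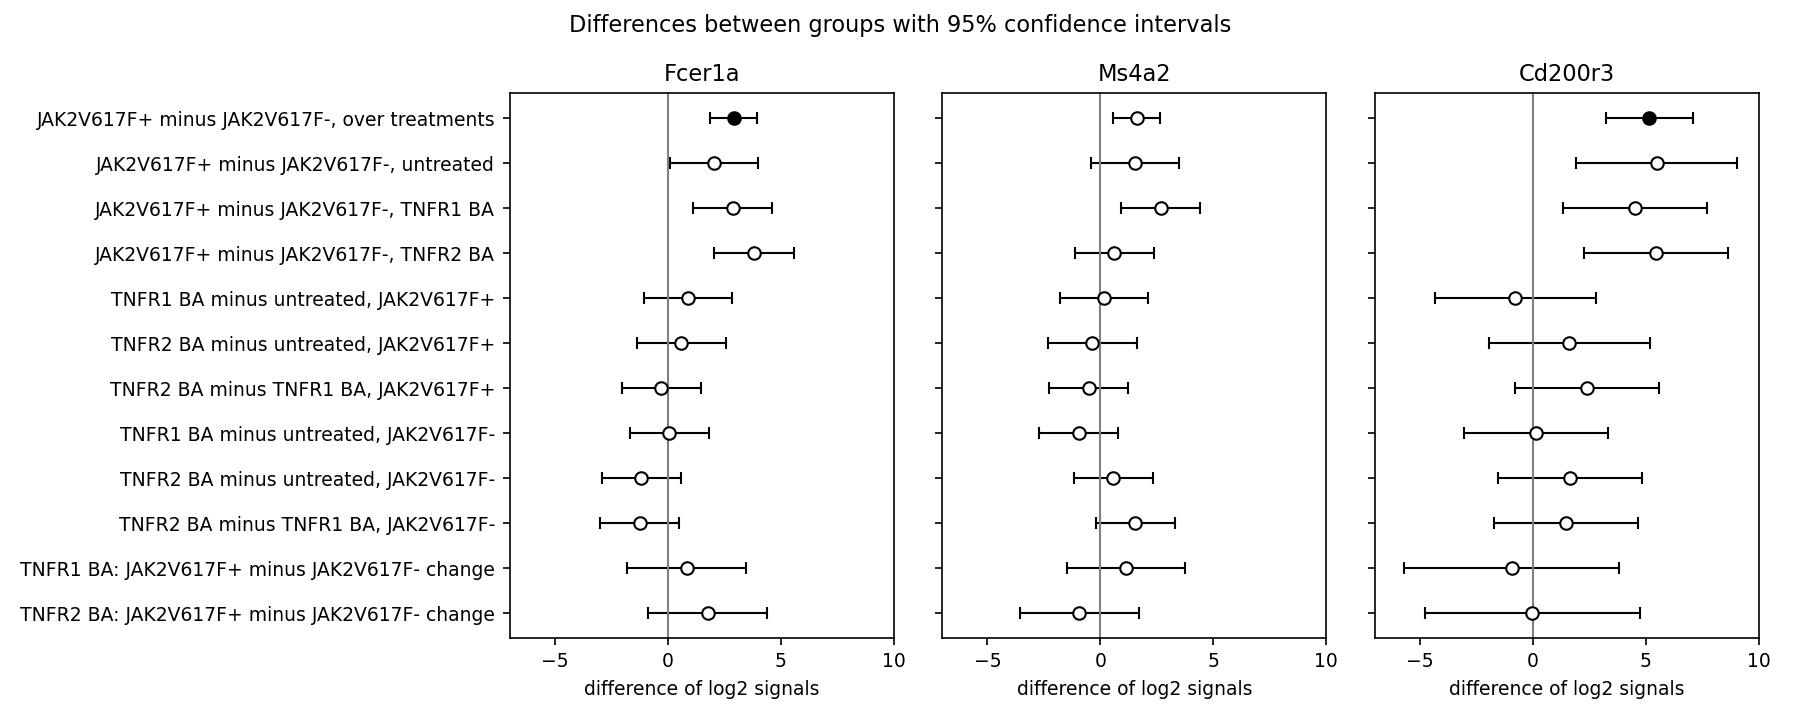
Differences of log2 signals (horizontal axis) of the 3 genes in each of the 12 comparisons, with 95% confidence intervals from limma. Filled circles passed an adjusted p of 0.05. These were the differences of Fcer1a (2.91) and Cd200r3 (5.16) between the genotypes over the treatments, and intervals of all BA comparisons include 0.

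The γ chain and the measured genes that carry the receptor's signal did not pass the threshold. Of 39 listed genes of IgE receptor signalling, 35 were measured and 23 had a positive difference between the genotypes over the treatments. None of them passed in limma (0 of 35), where 0.358% of all probe sets did, so this count is near that background. An unadjusted limma p under 0.05 was found for 8 of them and for 10.3% of all probe sets (1063 of 10335). Of these 8, Pik3r1 (-2.37), Pik3r5 (-2.07) and Nfatc1 (-2.02) were lower in JAK2V617F+ cells and the others higher. The median difference of the 35 genes was 0.39, where the median of all genes was 0.012 and 50.6% were positive. The signal of Fcer1g was 12.16 ± 0.48 (SD, n = 8) in JAK2V617F+ and 11.82 ± 0.26 (SD, n = 9) in JAK2V617F- cells, and it differed by 0.31 (standard error 0.22, adjusted p = 0.662 from limma). The largest difference of the list was that of Lat, the adaptor that assembles the signalling complex under the receptor, with 9.22 ± 1.58 (SD, n = 8) and 6.14 ± 1.37 (SD, n = 9), which differed by 3.24 (adjusted p = 0.0604 from limma). Pik3r1, a regulatory subunit of PI3 kinase, differed by -2.37 (adjusted p = 0.319 from limma) and Plcg2, a phospholipase that starts the calcium signal, by 0.90 (adjusted p = 0.338). Of 13 listed inhibitory receptors of mast cells, 8 were measured, 5 were positive and 0 passed in limma (0 with an unadjusted p under 0.05), with a median of 0.12. Pirb, an immunoglobulin-like inhibitory receptor, differed by 1.71 (adjusted p = 0.521 from limma), Cd300lf by -0.94 (adjusted p = 0.777) and Cd300a by -0.59 (adjusted p = 0.812).

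**Figure D4:**
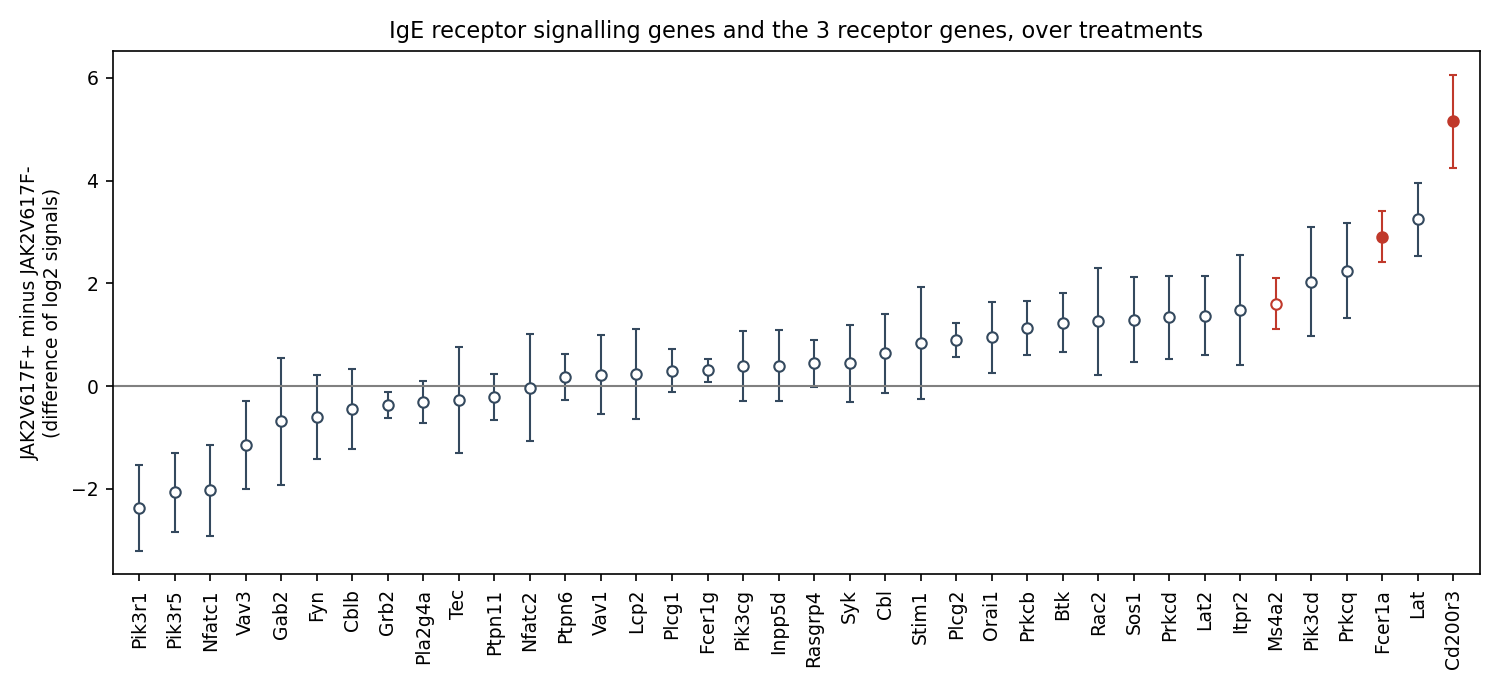
Difference of log2 signals between JAK2V617F+ and JAK2V617F- cells over the treatments (vertical axis) for the 35 measured genes of IgE receptor signalling (dark) and for Fcer1a, Ms4a2 and Cd200r3 (red), in order of size. Bars are standard errors and filled circles passed an adjusted p of 0.05, which were Fcer1a and Cd200r3.

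Of 9 other listed genes of the CD200 receptors and their adaptors, 7 were measured, 2 of them receptors and 5 adaptors or signalling proteins. None passed in limma (0 of 7), where 0.358% of all probe sets did. An unadjusted limma p under 0.05 was found for 1 of the 7, against 10.3% of all probe sets. Both receptors had a positive difference. Cd200r4, a receptor of the same family as Cd200r3, had 9.19 ± 1.04 (SD, n = 8) in JAK2V617F+ and 6.71 ± 1.59 (SD, n = 9) in JAK2V617F- cells and differed by 2.40 (adjusted p = 0.196 from limma). Cd200r1, the inhibitory receptor of CD200, differed by 0.74 (adjusted p = 0.809 from limma), and Dok1, an adaptor of its inhibitory signal, by 0.37 (adjusted p = 0.806). The other adaptors and signalling proteins, Tyrobp, Hcst, Dok2 and Rasa1, differed by -0.37 to -0.096, and the median of all 7 was -0.096.

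In the MS4A family of membrane proteins, to which the β chain belongs, 8 of 19 other listed genes were measured. Of these 0 had a positive difference and 0 passed in limma (2 of 8 with an unadjusted p under 0.05, against 10.3% of all probe sets), with a median of -1.94, against 1.60 for Ms4a2. With 0.358% of all probe sets past the threshold, a count of 0 among 8 genes is near that background. The 3 of smallest p were Ms4a4b (-2.78, adjusted p = 0.295 from limma), Ms4a6b (-2.19, adjusted p = 0.400) and Ms4a4c (-1.69, adjusted p = 0.500). Ms4a4c was at the lowest value on all JAK2V617F+ arrays, so it has only an upper bound there. Ms4a4b and Ms4a6b had mean log2 signals of 2.57 and 2.78 in JAK2V617F+ cells, also near the lowest value. Of 13 genes listed for other antibody receptors, 5 were measured, 4 Fc receptors and the IgE-binding lectin Lgals3 (-0.056), and 0 passed in limma (0 with an unadjusted p under 0.05). Fcgr3, an activating IgG receptor that also uses the γ chain, differed by 1.25 (adjusted p = 0.550 from limma). Fcgr2b, the inhibitory IgG receptor, differed by 0.34 (adjusted p = 0.908 from limma). Fcgrt, the neonatal Fc receptor, differed by -0.47 (adjusted p = 0.750 from limma) and Fcgr4, another activating IgG receptor, by -0.54 (adjusted p = 0.871). Mean signals in JAK2V617F+ and JAK2V617F- cells were 2.34 and 2.80 for Fcgrt and 2.89 and 3.51 for Fcgr4, not far from the lowest value.

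Some mast cell genes rose in JAK2V617F+ cells together with Fcer1a and Cd200r3. Of 20 listed mast cell granule and mediator genes, 12 were measured, 10 had a positive difference and 5 passed, all higher in JAK2V617F+ cells. Of all probe sets, 0.358% passed. The lists were chosen with earlier results of these data known, so this count is no independent support for a rise. The median difference of the list was 2.58. An unadjusted limma p under 0.05 was found for 8 of the 12, against 10.3% of all probe sets. Slc18a2 (-0.52) and Alox5ap (-0.26) had negative differences. The mean log2 signal of this list was 11.22 to 12.30 on JAK2V617F+ and 7.47 to 9.41 on JAK2V617F- arrays, with 0 of its genes at the lowest value on all arrays of a genotype. The 5 were the tryptases Tpsab1 (8.94) and Tpsb2 (7.35), Tph1 (6.18), which makes serotonin, the chymase Cma1 (5.64) and the carboxypeptidase Cpa3 (2.33), with adjusted p from 3.17e-06 to 0.000798 in limma. In JAK2V617F- cells, Tpsab1 was within 0.2 of the lowest value on 5 of 9 arrays, so its difference may be understated, and Tpsb2 reached at most 3.43, in a table without detection calls. Of 15 listed receptors and transcription factors of mast cells, 9 were measured, 9 were positive and 1 passed, with a median of 0.93. The 1 was Csf2rb2 (1.55, adjusted p = 0.0109 from limma), a β chain of the IL-3 receptor. An unadjusted limma p under 0.05 was found for 4 of the 9. The part of the number of mast cells in the differences of Fcer1a, Ms4a2 and Cd200r3 was not tested.

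Of 12 listed basophil genes, 8 were measured, 5 were positive and 1 passed, Cyp11a1 (3.28, adjusted p = 0.00106 from limma), which makes pregnenolone. Of all probe sets, 0.358% passed. An unadjusted limma p under 0.05 was found for 4 of the 8, against 10.3% of all probe sets. The list had a median difference of 0.78 and mean signals of 7.47 to 8.43 on JAK2V617F+ and 6.74 to 8.41 on JAK2V617F- arrays, with 0 genes at the lowest value throughout. The basophil protease Mcpt8 reached 12.72 ± 0.91 (SD, n = 8) in JAK2V617F+ and 11.82 ± 0.53 (SD, n = 9) in JAK2V617F- cells. Its difference was 0.81 (adjusted p = 0.400 from limma). Gcsam (-1.58), Cebpa (-0.90) and Cd69 (-0.58) had negative differences, and Gcsam was among the 4 with an unadjusted p under 0.05. Of 14 listed erythroid genes, 8 were measured, 8 were positive and 2 passed, and 7 had an unadjusted limma p under 0.05. The 2 were Car2 (1.47, adjusted p = 0.0132 from limma), a carbonic anhydrase, and Ermap (2.87, adjusted p = 0.0182), a membrane protein. The median difference of the 8 was 2.35. Mean signals of the list were 8.46 to 11.02 on JAK2V617F+ and 6.40 to 8.49 on JAK2V617F- arrays. None of the lists of megakaryocyte (median 1.20), eosinophil (0.32), neutrophil (-0.31), B cell (-1.30), T and NK cell (-0.90), monocyte, macrophage and dendritic cell (-1.33) and stem and progenitor genes (-0.19) held a gene that passed in limma, while 0 to 3 genes of each had an unadjusted p under 0.05. The targets of the antibodies, Tnfrsf1a and Tnfrsf1b, and Jak2 differed by 0.29, -0.085 and 0.66 between the genotypes (adjusted p = 0.870, 0.964 and 0.763 from limma), and whether the Jak2 probe set reads the retroviral copy was not tested.

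Across the 17 arrays, the genes whose signals were most like Fcer1a by Pearson r were Cpa3 (0.920), Maob (0.885), Alox5 (0.872), Cma1 (0.861) and Hs6st2 (0.849). Cd200r3 was most like Cpa3 (0.899), Tph1 (0.870), Alox5 (0.854), Cma1 (0.851) and Foxj2 (0.843). Cpa3, Alox5 and Cma1 were thus in both sets of 5, while Ms4a2 was most like Gna14 (0.816), Furin (0.794), Smyd3 (0.791), Trim41 (0.776) and Csf2rb2 (0.773). The genotypes form clusters and the arrays share 3 experiments, so these values are descriptions. Within the 9 JAK2V617F- arrays the r of Cpa3 was 0.833 with Fcer1a and 0.737 with Cd200r3, and within the 8 JAK2V617F+ arrays 0.412 and 0.600. The r of all 15 named pairs ranged from 0.469 to 0.833 within JAK2V617F- arrays and from -0.444 (Csf2rb2 with Ms4a2) to 0.813 (Trim41 with Ms4a2) within JAK2V617F+ arrays, where that of Tph1 with Cd200r3 was 0.118. Between the 3 genes, r over all arrays was 0.743 for Fcer1a and Cd200r3, 0.564 for Ms4a2 and Cd200r3 and 0.546 for Fcer1a and Ms4a2. Within JAK2V617F+ arrays these were -0.099, 0.15 and 0.70, and within JAK2V617F- arrays 0.40, -0.23 and -0.50, so the value for Fcer1a and Ms4a2 had opposite signs in the genotypes, over 8 and 9 arrays, a change that was not tested.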

How the data were processed

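Gene expression of Lin-Kit+ bone marrow cells was measured on 18 Affymetrix mouse arrays. The values deposited by the authors are log2 signals of probe sets from Affymetrix Expression Console, used here as they stand, with the normalization and the choice of the 10335 probe sets not given in the sources used here. They carry no depth or detection call, and the number of arrays limits the precision. Symbols came from the platform's annotation (1 symbol for 9651 probe sets, several for 27, none for 657), and by Entrez ID 9625 matched RefSeq (GRCm38.p6) with 0 changes. RefSeq promoter windows were found for 3 of 3 genes.

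Limma 3.58.1 in R 4.3.3 was fitted to the 6 group means of 17 arrays, with a trend in the moderated variances and Benjamini-Hochberg adjustment over all probe sets at a threshold of 0.05. The difference over the treatments is the mean of the 3 within-treatment differences. Exact permutation p-values are 2 times the smaller tail. The methods were tested on simulated data. The replicate number was taken to name the independent experiment, each of which gave all cultures and both sorted fractions, and so to pair the arrays. As a check, deviations from group means had a mean r of 0.008, 0.071 and 0.144 within numbers 1, 2 and 3 against -0.033 across numbers, and 14 of 17 arrays were closest to 1 of their own number. Listed genes with several probe sets were represented by that of highest mean. Named genes were the 3 members, list genes past the threshold (otherwise the 3 of smallest p) and the 5 most correlated genes per member. Some genes outside this rule were chosen after their values were seen. Fcer1g was named as a receptor chain, and Kit, Mcpt8, S100a8 and S100a9 as markers of the cells. Tyrobp, Hcst, Dok2, Rasa1, Fcgr2b, Lgals3, Slc18a2, Alox5ap, Gcsam, Cebpa, Cd69, Pik3r5 and Nfatc1 were named to describe what their lists hold. The members and lists were chosen with earlier results of these data known. Alternatives were all 18 arrays, a replicate block, only the compared groups, quantile normalization, median centring, array weights, no variance trend, leaving out dim probe sets, the methods' paired test and leaving out replicates or arrays.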

Additional observations from a re-analysis of the deposited data

Results flagged for a closer look

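Cd200r3 had a log2 signal of 7.44 on the TNFR2 BA JAK2V617F- array of replicate 3, apart from the other 8 JAK2V617F- arrays, which lay at 4.71 or below. The distance to the next array was large for the range of its genotype. Such a test of the extreme arrays marks about 1 in 20 groups by chance where values are spread normally. Here 5 of the 9 JAK2V617F- arrays lay within 0.2 of the lowest value, so that rate does not hold. The test was run on both genotypes for each of the 3 genes. The mean log2 signal of the mast cell granule list on this array was 9.41, the highest of the JAK2V617F- arrays. Without it, Cd200r3 differed between the genotypes by 5.64 over the treatments (adjusted p = 0.00397 from limma).

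The array left out for its quality, untreated JAK2V617F+ replicate 3, was not used in any test above, yet Fcer1a (11.97) and Cd200r3 (8.41) lay above the highest JAK2V617F- array there (10.58 and 7.44). Ms4a2 had 7.75 on it, within the range of the JAK2V617F- arrays. Its mast cell granule list had a mean log2 signal of 11.39.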

How the results depend on the processing

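Under 7 of 7 other settings, the differences over the treatments stayed past the threshold for Fcer1a (2.87 to 3.09) and Cd200r3 (5.05 to 5.38). That of Ms4a2 was past it under 0 of 7 (1.42 to 1.62). The fits called leave-one-out left out 1 array or all arrays of 1 replicate number. Over 20 leave-one-out fits, Fcer1a ranged from 2.20 to 3.41 (called in 18, adjusted p from 0.00397 to 0.267 in limma), Cd200r3 from 4.63 to 5.98 (called in 17, adjusted p from 0.00397 to 0.306) and Ms4a2 from 0.99 to 2.15 (called in 0). The probe sets called over the treatments were 67 with a replicate block and 6 to 119 in leave-one-out fits, where the 119 came without untreated JAK2V617F+ replicate 1. The replicate block changed no other call of the 3 genes than that of Fcer1a with TNFR2 BA (from 0.145 to 0.0326, adjusted p from limma, where the other settings ran up to 0.892). The exact test within pairs was chosen after seeing the data and left all 3 genes under a p of 0.05. It treats the pairs of an experiment as independent. The counts of the whole table within treatments (8, 9 and 4) went to 4, 5 and 2 with all 18 arrays, to 0, 0 and 0 with only the compared groups and to 2, 0 and 0 with the methods' paired test. With TNFR2 BA it was 9 for variances without a trend. TNFR2 BA against untreated in JAK2V617F+ cells had 3 calls, and 0 with a replicate block. By the methods' paired test, 341 to 487 of the 10335 probe sets per comparison had an unadjusted p under 0.05. A share of about 0.05 would do so without any difference, and 0 to 8 passed after Benjamini-Hochberg adjustment.

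Differences that did not pass changed sign as follows. Ms4a2 with TNFR2 BA against untreated in JAK2V617F+ cells was 0.20 with all 18 arrays and -0.82 to 0.065 in leave-one-out fits. Cd200r3 by TNFR2 BA and genotype was 0.34 with array weights and -2.07 to 1.44 in leave-one-out fits, and by TNFR1 BA and genotype -3.40 to 1.67. By the methods' paired test, Ms4a2 with TNFR1 BA against untreated in JAK2V617F+ cells was -0.38 (leave-one-out -0.38 to 0.69) and Fcer1a with TNFR2 BA -0.090 (leave-one-out -0.15 to 1.57). The other leave-one-out ranges across 0 were -3.14 to 1.95 for Cd200r3 with TNFR1 BA against untreated in JAK2V617F+ cells, -0.68 to 0.75 for Cd200r3 and -0.65 to 0.94 for Fcer1a in JAK2V617F- cells, -0.41 to 1.23 for Ms4a2 between the genotypes with TNFR2 BA, -0.99 to 0.17 for Fcer1a and -1.04 to 0.025 for Ms4a2 between the BAs in JAK2V617F+ cells and -0.047 to 1.58 for Fcer1a by TNFR1 BA and genotype. The cause was not tested. Each gene had 1 probe set, so the alternative on several probe sets could not be run, and values near the lowest signal limit how far falls can be seen.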
